A study of Homo sapiens with 6 samples.

Results

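The genes described here are 10 negative regulators and readouts of the RAS-ERK pathway, measured by RNA-seq in the human lung adenocarcinoma derivative H2087-LCC: the dual-specificity phosphatases DUSP1, DUSP4, DUSP5 and DUSP6, the Sprouty genes SPRY1, SPRY2 and SPRY4, the Sprouty-related genes SPRED1 and SPRED2, and PHLDA1. They were chosen by symbol, all 10 were found once among the 21293 genes of the deposited table, and all 10 were among the 14395 genes tested, which had 10 or more normalized counts on average over the 6 libraries. H2087-LCC cells are a latency-competent line, derived from dormant metastases of the established line H2087. The study traces the line to a stage I human lung adenocarcinoma with mutant RAS. All cells were kept in low-serum medium, and there were 2 libraries in each of 3 groups: SB505124 for 3 days (SB), TGFβ for 3 days and TGFβ for 7 days. SB505124 inhibits the TGFβ type I receptor kinase, so the SB group is a baseline in which signaling by the cells' own TGFβ was blocked, and not an untreated culture. No 7-day SB group was measured, so that the duration of TGFβ and the time in culture cannot be told apart at 7 days. The 2 libraries of a group are described by the study as technical replicates, and the SDs and p-values below may therefore cover less than the spread between separate cultures.

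When a growth factor receptor activates RAS, the kinases RAF, MEK and ERK are switched on in turn, and active ERK raises the transcription of genes whose products dampen the same cascade. The DUSP proteins of this family remove phosphate from MAP kinases, Sprouty proteins act between the receptor and RAS or RAF, and SPRED proteins recruit the RAS GTPase-activating protein neurofibromin to the membrane. Because their transcription follows ERK activity, several of these genes, with PHLDA1, are widely used as a transcriptional readout of the pathway, although RNA levels alone do not measure ERK phosphorylation.

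The deposited values are normalized counts, that is, read counts per gene that were scaled between libraries and rounded to whole numbers. Their totals ran from 34306283 to 36340734 per library, and the worth of 1 read, read from the lowest values, placed the depth at an estimated 32004401 to 39958883 assigned reads. Counting error of the 10 genes was therefore small, between 0.615% and 5.78% of the value. The tests took their precision from the spread between libraries of the same group, pooled over the 3 groups and moderated across all genes tested. For most genes that spread was wider than counting error. The squared difference between paired libraries was divided by the counting variance for 11389 genes. The median of this ratio was lowest in the 7-day group (7.62), 9.25 in the 3-day group and highest in SB (10.6). Single genes went the other way, with a gap narrower than counting error, as for SPRY1 at 7 days (312 and 311). All 7 epithelial and lung markers checked were present in every library. KRT8 (33341 to 42692) and KRT18 (31757 to 50793) had the highest normalized counts, which do not allow for gene length. Of the 7, 5 were called at 3 days and 5 at 7 days against SB, each time 1 higher and 4 lower. Over all genes tested 29.0% were called at 3 days and 54.5% at 7 days. EPCAM was 3.08 times lower at 7 days, NKX2-1, the lung lineage factor, 3.90 times lower at 3 days, and KRT7 2.85-fold higher at 3 days. Of 6 leukocyte and endothelial markers, PTPRC (at most 4) and CD3E (at most 1) were near 0. VWF (7 and 13 in SB, 4 and 3 at 7 days) and CDH5 (14 and 20 in SB, 2 and 0 at 7 days) were too low to be tested. CD68 ran from 4368 to 5113, and PECAM1, at 36 to 67, was called higher at 3 days (log2 fold change 0.72, adjusted p = 0.0391). The part of these marker differences in the results below was not tested. In bulk RNA, a change in the number of cells that express a gene and a change in RNA per cell cannot be told apart. Groups were compared on the log2 scale with limma across all 14395 genes, and a gene was called where its p adjusted by the Benjamini-Hochberg method was below 0.05. An exact permutation test of 2 against 2 libraries cannot go below p = 0.333, so no such test is given for single genes.

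DUSP4 and DUSP5, both inducible nuclear phosphatases, moved in opposite directions and did so at both times. DUSP4, which acts on ERK and also on JNK and p38, lies on the minus strand of chromosome 8 (GRCh37, 29190581 to 29208201). Its normalized counts were 423 and 495 in SB, 723 and 816 after 3 days of TGFβ, and 1590 and 1714 after 7 days. The 3 groups did not overlap, and the level was higher at each step. The log2 fold change from SB was 0.75 at 3 days (SE 0.12, adjusted p = 0.000657) and 1.85 at 7 days (adjusted p = 1.80e-07), a 3.60-fold difference in level. Between 3 and 7 days DUSP4 rose a further 2.15-fold (log2 fold change 1.1, adjusted p = 7.97e-05).

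DUSP5, which is selective for ERK and holds it in the nucleus, lies on the plus strand of chromosome 10 (GRCh37, 112257665 to 112271291). It had 4835 and 4879 normalized counts in SB, 2807 and 2854 at 3 days, and 1811 and 1735 at 7 days. Again no group overlapped another, here with the lowest values at 7 days. On the log2 scale DUSP5 fell by 0.78 at 3 days (SE 0.08, adjusted p = 2.80e-05), by 1.45 at 7 days against SB (adjusted p = 6.45e-08), and by 0.67 from 3 to 7 days (adjusted p = 0.000187). At 7 days its level was 2.74 times lower than in SB. The comparisons of 3 and 7 days with SB share the same SB libraries, here and for every gene below.

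DUSP6, the cytoplasmic phosphatase that is selective for ERK, fell at 3 days and was higher again at 7 days. The gene lies on the minus strand of chromosome 12 (GRCh37, 89741012 to 89746278). Its values were 11683 and 11449 normalized counts in SB, 6104 and 6289 at 3 days, and 10336 and 9939 at 7 days. The 3-day libraries were the lowest by a wide margin, and the 7-day libraries lay just under the SB libraries without overlapping them. At 3 days DUSP6 was 1.87 times lower than in SB (log2 fold change -0.90, SE 0.08, adjusted p = 3.96e-06), and from 3 to 7 days it rose 1.64-fold (log2 fold change 0.71, adjusted p = 7.56e-05). The 7-day difference from SB was -0.19 on the log2 scale, with a 95% interval of -0.36 to -0.02, and did not pass the threshold (adjusted p = 0.0536), though it passed under some alternatives (adjusted p from 0.0151 to 0.279). An annotated antisense RNA gene overlaps 28.6% of the DUSP6 exon bases, and since the library kit does not mark strand, reads from the 2 strands cannot be told apart there.

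DUSP1, an immediate-early nuclear phosphatase of JNK, p38 and ERK, was the least clear-cut of the 4 phosphatases. It lies on the minus strand of chromosome 5 (GRCh37, 172195099 to 172198198). Normalized counts were 1282 and 984 in SB, 1350 and 1399 at 3 days, and 1108 and 697 at 7 days. The SB and 7-day libraries overlapped each other, and the 3-day libraries were above both. The log2 fold change was 0.29 at 3 days against SB (95% interval -0.12 to 0.70, adjusted p = 0.273) and -0.35 at 7 days (95% interval -0.76 to 0.06, adjusted p = 0.130). From 3 to 7 days DUSP1 fell by 0.64 on the log2 scale (adjusted p = 0.0209). Without the second 7-day library the value was -0.31 and did not pass (adjusted p = 0.226), nor did it pass without the second 3-day library, the filter or the variance trend, and over all alternatives the adjusted p ran from 0.00115 to 0.226. Without the first 7-day library, in turn, DUSP1 at 7 days was lower than in SB (log2 fold change -0.69, adjusted p = 0.00605, in a range of 0.00605 to 0.939).

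The promoter of DUSP1 is shown because it alone, of the member promoters searched, held the palindromic cAMP response element, the site known for CREB and ATF factors. Each window reached from 250 bases before to 50 bases after a RefSeq start (GRCh38.p14, a build other than the GRCh37 of the gene positions here), and 12 windows of 8 members were searched on both strands, DUSP4 and DUSP5 having no entry. The motif TGACGTCA was present in 1.85% of 35116 promoters, and the AP-1 motif TGANTCA, found in 1 SPRED2 window, in 7.71%. The first sequence is from DUSP1 (chr5:172771303-172771330, minus strand). The second, of 2 AP-1 matches in the SPRED2 window, begins at position -6 from its RefSeq start and reaches that start (chr2:65366768-65366794, minus strand). That start lies downstream of another SPRED2 start searched (window chr2:65432550-65432849, minus strand), where the motif was not found. Capitals mark the motif.
DUSP1: gcagggcgggTGACGTCAccgccccgtc
SPRED2: aaccctcggaTGACTCAtccggtacaa
The DUSP1 window also held the E-box CACGTG (7.26% of promoters), which does not overlap its cAMP response element, and the CCAAT box, read as ATTGG or its reverse (34.6%), was found in DUSP6 and SPRED2. The ETS motif CCGGAAGT (4.14%), the SMAD palindrome GTCTAGAC (0.202%) and the CArG box (1.29%) were not in the searched windows of the members, which says only that these letters are missing there.

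Among the Sprouty genes, whose products restrain signaling from receptor tyrosine kinases, SPRY1 and SPRY2 were lower and SPRY4 higher at the end of the series. SPRY1 (chromosome 4, GRCh37, 124317950 to 124324915, plus strand) had 1467 and 1306 normalized counts in SB, 374 and 347 at 3 days, and 312 and 311 at 7 days. Both TGFβ groups lay far below SB, and they lay close to each other. SPRY1 was 3.85 times lower than SB at 3 days (log2 fold change -1.94, SE 0.12, adjusted p = 3.11e-07) and 4.45 times lower at 7 days (log2 fold change -2.15, adjusted p = 5.47e-08). The step from 3 to 7 days was -0.21 (95% interval -0.48 to 0.06) and did not pass the threshold (adjusted p = 0.209).

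SPRY2 (chromosome 13, GRCh37, 80910111 to 80915261, minus strand) followed another course, with most of its decrease after day 3. Normalized counts were 4656 and 3731 in SB, 3373 and 3468 at 3 days, and 1696 and 1586 at 7 days. The 3-day libraries were below both SB libraries, which stood wide apart, and the 7-day libraries were lower still. At 3 days the log2 fold change of -0.29 did not pass (95% interval -0.52 to -0.05, adjusted p = 0.0690), and without the second SB library it was -0.44 and passed (adjusted p = 0.00913, in a range of 0.00913 to 0.373 over the alternatives). At 7 days SPRY2 was 2.56 times lower than SB (log2 fold change -1.35, adjusted p = 1.11e-06) and 2.08 times lower than at 3 days (log2 fold change -1.06, adjusted p = 5.22e-05).

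SPRY4 (chromosome 5, GRCh37, 141689992 to 141706020, minus strand) rose by day 3 and stayed at that level. It had 4300 and 3674 normalized counts in SB, 6272 and 6334 at 3 days, and 6783 and 6370 at 7 days. Both TGFβ groups were above SB, and they lay next to each other, the lower 7-day library just above the higher 3-day library. The rise over SB was 1.58-fold at 3 days (log2 fold change 0.67, SE 0.09, adjusted p = 0.000210) and 1.65-fold at 7 days (log2 fold change 0.73, adjusted p = 4.68e-05), and the difference between the times was 0.06 (95% interval -0.14 to 0.26, adjusted p = 0.650).

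**Figure D1:**
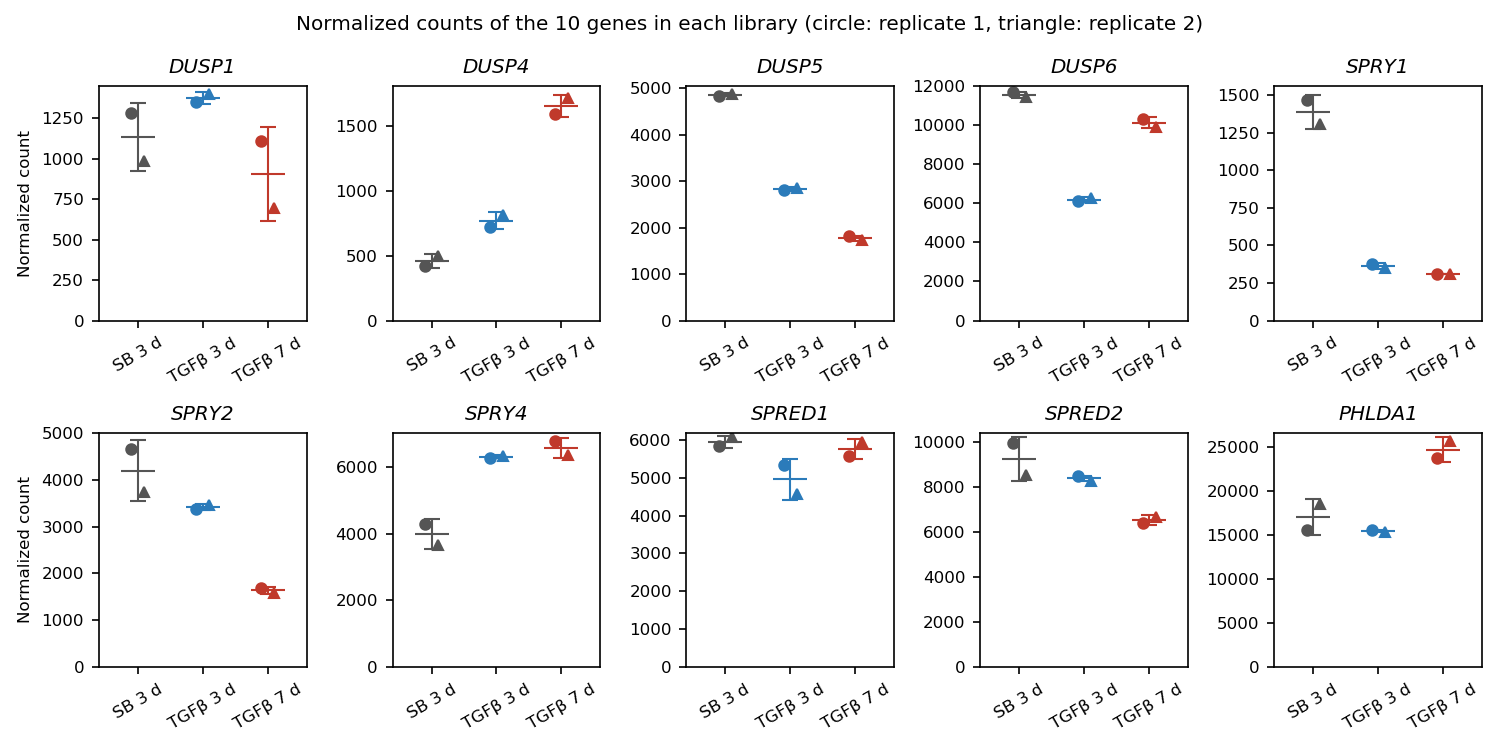
Normalized count of each of the 10 genes in each library, by group (SB, TGFβ 3 days, TGFβ 7 days), with a circle for the first and a triangle for the second library of a group and bars for the mean ± SD (n = 2). DUSP4 was higher at each step and DUSP5 lower, DUSP6 dipped at 3 days, and the libraries of DUSP1 in SB and at 7 days overlapped.

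The SPRED genes, of which SPRED2 fell at 7 days, had small differences throughout. SPRED1 (chromosome 15, GRCh37, 38545037 to 38649450, plus strand) had 5839 and 6062 normalized counts in SB, 5342 and 4574 at 3 days, and 5569 and 5944 at 7 days. Its 3-day libraries were the lowest, while SB and 7 days overlapped. The 3-day difference of -0.27 from SB was at the edge of the threshold (adjusted p = 0.04999) and was lost in 12 of 16 alternatives (adjusted p from 0.0209 to 0.367), and without the second 3-day library it was -0.16. SPRED1 at 7 days did not pass against SB (log2 fold change -0.05, 95% interval -0.25 to 0.16, adjusted p = 0.681) or against 3 days (log2 fold change 0.22, adjusted p = 0.0913).

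SPRED2 (chromosome 2, GRCh37, 65537985 to 65659771, minus strand) had 9953 and 8555 normalized counts in SB, 8483 and 8300 at 3 days, and 6391 and 6690 at 7 days. The 7-day libraries were below all others, and the SB and 3-day libraries were near each other. SPRED2 fell by 0.50 on the log2 scale from SB to 7 days (SE 0.09, adjusted p = 0.000592), and the 3-day value of -0.14 did not pass (95% interval -0.33 to 0.06, adjusted p = 0.279). The decrease of 0.36 from 3 to 7 days passed (adjusted p = 0.01) but was lost without either 7-day library without the first 3-day library or without the variance trend (adjusted p from 0.00333 to 0.0907 over the alternatives).

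PHLDA1, a protein with a pleckstrin homology-like domain whose transcript follows ERK activity, was called higher at 7 days in both comparisons and was not called at 3 days. The gene lies on the minus strand of chromosome 12 (GRCh37, 76419227 to 76425556), and an antisense gene, PHLDA1-AS1, overlaps 9.35% of its exon bases. Normalized counts were 15604 and 18497 in SB, 15570 and 15356 at 3 days, and 23706 and 25673 at 7 days. The 7-day libraries were above all others, and the 3-day libraries were just below the lower SB library. PHLDA1 was 1.45-fold higher at 7 days than in SB (log2 fold change 0.54, SE 0.09, adjusted p = 0.000431) and 1.60-fold higher than at 3 days (log2 fold change 0.67, adjusted p = 0.000355). The 3-day difference of -0.14 from SB did not pass (95% interval -0.34 to 0.07, adjusted p = 0.301), though it passed without the first SB library (-0.26, adjusted p = 0.0448, in a range of 0.0448 to 0.926).

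Counted together, 6 of the 10 genes were called at 3 days of TGFβ against SB, 2 higher (DUSP4 and SPRY4) and 4 lower (DUSP5, DUSP6, SPRY1 and SPRED1). Over all genes tested 29.0% were called, 14.9% higher and 14.0% lower. At 7 days against SB 7 of the 10 were called, with DUSP4, SPRY4 and PHLDA1 higher and DUSP5, SPRY1, SPRY2 and SPRED2 lower, beside 54.5% of all genes (27.7% higher and 26.9% lower). Between 3 and 7 days 7 of the 10 were again called, with DUSP4, DUSP6 and PHLDA1 higher and DUSP1, DUSP5, SPRY2 and SPRED2 lower, beside 33.2% of all genes (17.0% higher and 16.2% lower). The median log2 fold change of the 10 genes was -0.20, -0.27 and -0.07 in these 3 comparisons, against -0.02, -0.000810 and 0.02 over all genes tested. Each comparison thus held members called in both directions.

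**Figure D2:**
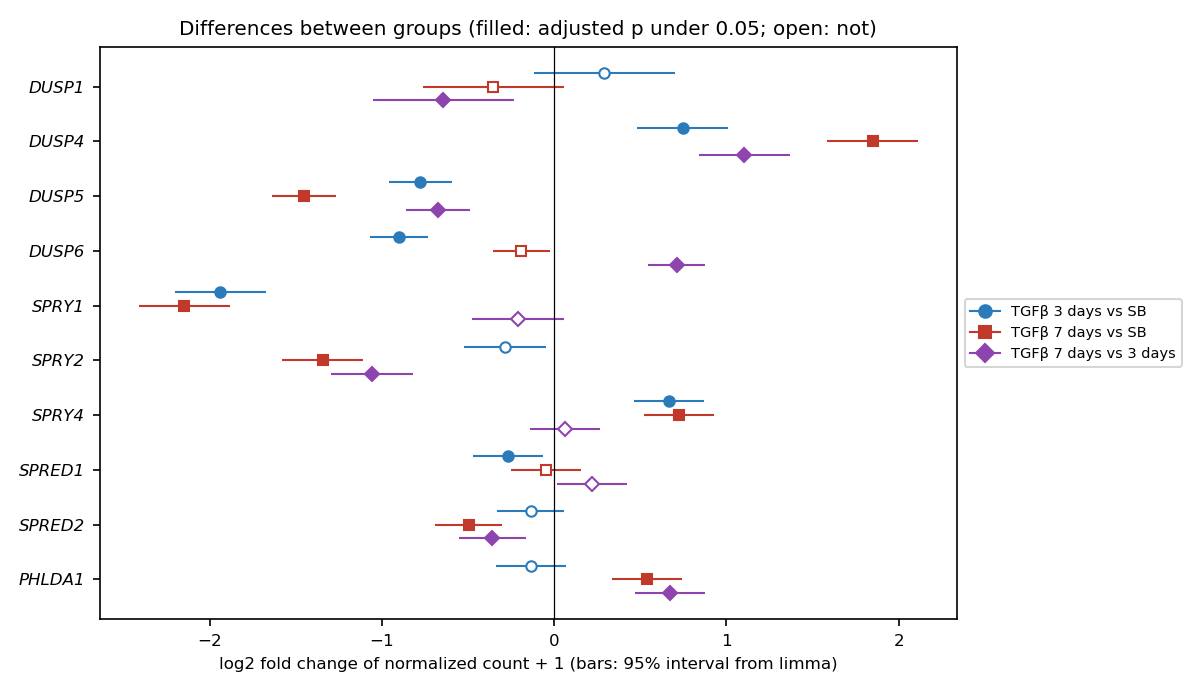
Log2 fold change of the 10 genes in the 3 comparisons, with 95% intervals from limma; filled points passed an adjusted p of 0.05. In each comparison members lay on both sides of 0, from SPRY1 (-2.15) to DUSP4 (1.85) at 7 days against SB.

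Levels of the 10 genes were compared with each other only as normalized counts per kilobase of exon, which allows for gene length. On this scale DUSP6 (2997 per kb in SB, 1606 at 3 days, 2627 at 7 days) and PHLDA1 (2884, 2615 and 4175) were the most abundant of the 10 in every group, and their libraries overlapped in SB. DUSP4, despite its rise, was among the lowest members throughout (63.1, 106 and 227 per kb). In SB DUSP5 (1916 per kb), SPRED2 (1681), SPRY2 (1305), SPRED1 (768), SPRY4 (608), DUSP1 (563) and SPRY1 (350) followed PHLDA1 in that order, with SPRY4 and DUSP1 overlapping, and DUSP4 came last. By 7 days SPRY1 was last (78.6 per kb), and SPRY4 (1003) had passed SPRED1 (743), DUSP5 (699) and SPRY2 (511), of which SPRY2 overlapped DUSP1 (448).

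The make-up of each family shifted accordingly. SPRY4 supplied 26.5% and 27.3% of the Sprouty RNA per kb in the SB libraries, 45.5% and 45.3% at 3 days, and 63.0% and 62.9% at 7 days. SPRY2 went from 58.5% and 56.6% in SB to 32.2% and 32.0% at 7 days, and SPRY1 from 15% and 16.1% to 4.80% and 5.08%. The summed level of the 3 Sprouty genes nevertheless changed less than its parts, from 2475 and 2051 per kb in SB to 2101 and 2133 at 3 days and 1641 and 1544 at 7 days. SPRY4 thus went from the second most abundant of the 3 to the most abundant, and the order of SPRY4 and SPRY2 was reversed in both 7-day libraries.

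For the 4 phosphatases the summed level was 5630 and 5448 per kb in SB, 3459 and 3563 at 3 days, and 4162 and 3842 at 7 days. DUSP6 made up 53.8% and 54.5% of it in SB, 45.7% in both 3-day libraries, and 64.4% and 67.0% at 7 days. DUSP5 went from 33.9% and 35.3% in SB to 17.2% and 17.8% at 7 days. The ratio of DUSP4 to DUSP5 per kb was 0.0305 and 0.0354 in SB, 0.0898 and 0.0997 at 3 days, and 0.306 and 0.344 at 7 days, with DUSP5 the more abundant gene throughout.

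**Figure D3:**
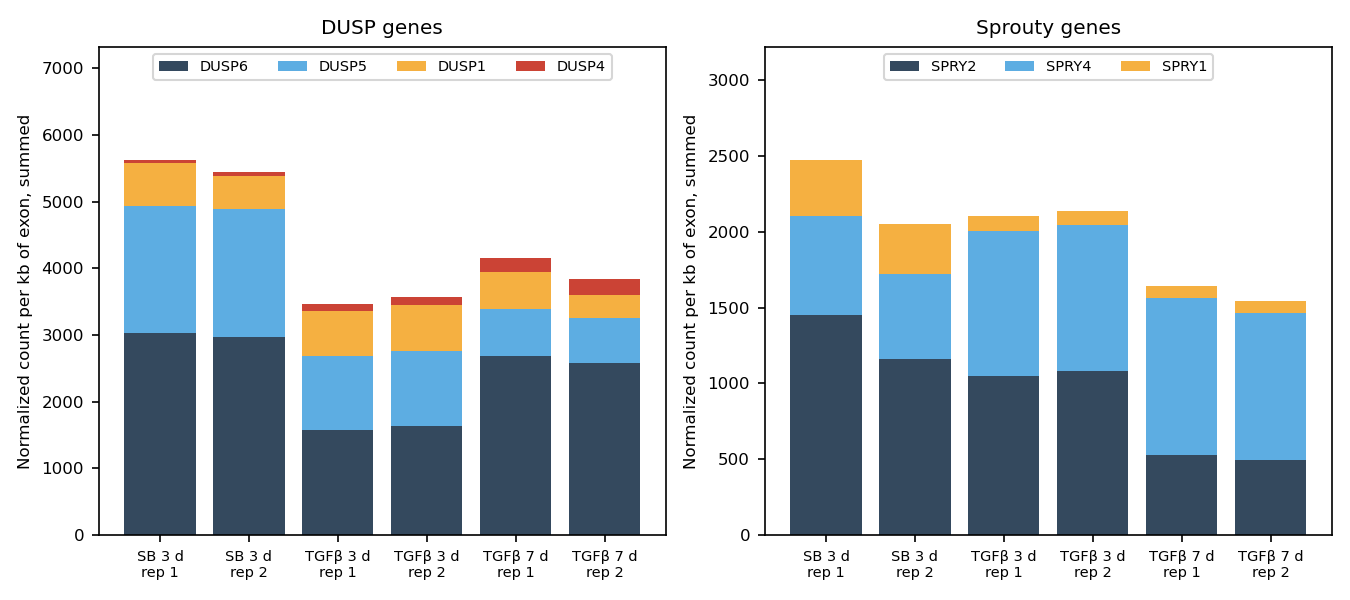
Summed normalized counts per kilobase of exon for the phosphatases and the Sprouty genes in each of the 6 libraries, stacked by gene. SPRY4 took up 26.5% to 27.3% of the Sprouty RNA in SB and 62.9% to 63.0% at 7 days, and DUSP6 45.7% of the phosphatase RNA at 3 days and 64.4% to 67.0% at 7 days.

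Within groups, the higher library for DUSP1 was also the higher one for some immediate-early genes, a comparison that was chosen after the values were seen and with genes picked because they share it. EGR1, an early growth response factor, had 1828 and 1110 normalized counts in SB, 3312 and 4140 at 3 days, and 1676 and 779 at 7 days. FOS, a component of AP-1, had 194 and 122 in SB, 362 and 423 at 3 days, and 991 and 140 at 7 days. In DUSP1, EGR1, FOS and IER2 alike, the first library was higher in SB, the second at 3 days and the first at 7 days. Some of these gaps were small, as for IER2 in SB (1.06-fold). For DUSP1 at 3 days the gap was 1.04-fold, beside counting errors of 2.71% and 2.56% in its 2 libraries. Of the 17 tested genes of the ERK-responsive list 9 had this order in all 3 groups, against 13.8% of all other genes tested, and IER3, with 937 and 1377 in SB, did not. The 7-day libraries differed 7.08-fold in FOS, the widest gap of the 4 genes shown. DUSP1 is thus measured beside a difference between the libraries of a group whose part in its group differences was not tested.

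**Figure D4:**
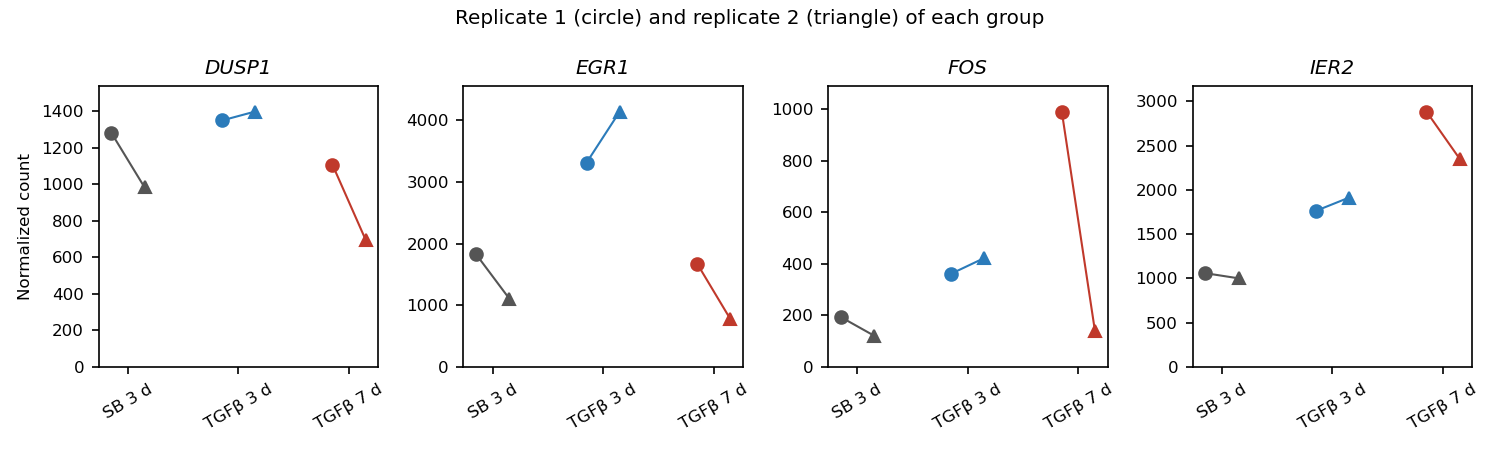
Normalized counts of DUSP1, EGR1, FOS and IER2 by group, with a circle for the first library, a triangle for the second and a line joining them, on axes that start at 0. FOS differed 7.08-fold between the 7-day libraries, and in each group the same library was the higher one for all 4 genes.

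Genes whose log2 values closely followed DUSP6 and SPRY4 over the 6 libraries are given as a description, with the 3 groups shared by all points. For DUSP6 they included TRAFD1 (Pearson r = 0.989) and FAM53C (r = 0.986) out of 11388 genes compared. For SPRY4 the closest were EMP3 (r = 0.9998), PRSS3 (r = 0.998) and PDGFA (r = 0.998), and 36 genes were above 0.99.

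The counts for the other lists are read beside the share of all genes called, which was 29.0% at 3 days against SB, 54.5% at 7 days against SB and 33.2% between the times. Of the other genes of these families, 12 of 13 listed genes were tested. At 3 days against SB 4 were called, 3 higher and 1 lower, among them DUSP3 (log2 fold change 0.58, adjusted p = 0.000521), a small phosphatase of ERK and JNK, and DUSP14 (-0.61, adjusted p = 0.00492). At 7 days 10 were called, 6 higher and 4 lower, with DUSP10, a phosphatase of JNK and p38, at 0.76 and DUSP2, an inducible nuclear phosphatase, at -1.63. Between 3 and 7 days 8 were called, 5 higher and 3 lower.

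Among genes of the RAS-ERK cascade itself, 20 of 20 were tested, and 6 (3 higher, 3 lower), 10 (8 higher, 2 lower) and 7 (6 higher, 1 lower) were called in the 3 comparisons. Counted without direction, these shares were near those of all genes. All genes split more evenly, into 27.7% higher and 26.9% lower at 7 days against SB and 17.0% and 16.2% between the times. The adaptor GAB1 (log2 fold change 0.98) and the RAS exchange factor SOS2 (0.80) were among those higher at 7 days than in SB, and the ERK-activated kinase gene RPS6KA1 (-0.86) was among those lower. The medians of the list were near 0, at -0.00616, 0.09 and 0.06.

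A list of 16 other brakes on the pathway, all tested, had 9 (6 higher, 3 lower), 12 (9 higher, 3 lower) and 7 (6 higher, 1 lower) called. IL17RD, also known as SEF, which restrains ERK signaling at membranes, had 761 and 755 normalized counts in SB, 961 and 963 at 3 days, and 3613 and 4093 at 7 days. Its log2 fold change at 7 days was 2.34 against SB (adjusted p = 5.43e-09) and 2.0 against 3 days. RASA1, a RAS GTPase-activating protein, had 5666 and 4810 normalized counts in SB, 12510 and 11529 at 3 days, and 14155 and 15479 at 7 days. RASA1 was therefore above SB at both times, by 1.2 (adjusted p = 2.34e-06) and then 1.5 (adjusted p = 1.53e-07) on the log2 scale.

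Of 18 other ERK-responsive genes 17 were tested, and 10 (7 higher, 3 lower), 14 (6 higher, 8 lower) and 10 (4 higher, 6 lower) were called. FOSL1, an AP-1 component, was lower at 7 days than in SB (log2 fold change -1.59), with 17421 and 10815 normalized counts in SB, 12415 and 13592 at 3 days, and 4712 and 4433 at 7 days. EPHA4, a receptor tyrosine kinase, had 2353 and 2237 in SB, 772 and 660 at 3 days, and 424 and 372 at 7 days (log2 fold change -2.53 at 7 days, adjusted p = 1.41e-08). SH2B3 (log2 fold change 1.61) and IER2 (1.34) were higher at 7 days than in SB. Other transcriptional readouts of ERK thus also moved in both directions. Of 15 genes of the JNK and p38 cascades, on which DUSP1, DUSP4 and DUSP10 act, 14 were tested, and 6 (all lower), 9 (3 higher, 6 lower) and 3 (1 higher, 2 lower) were called, including the p38 kinase kinase MAP2K3 at -0.98 and -1.89 against SB at 3 and 7 days.

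**Figure D5:**
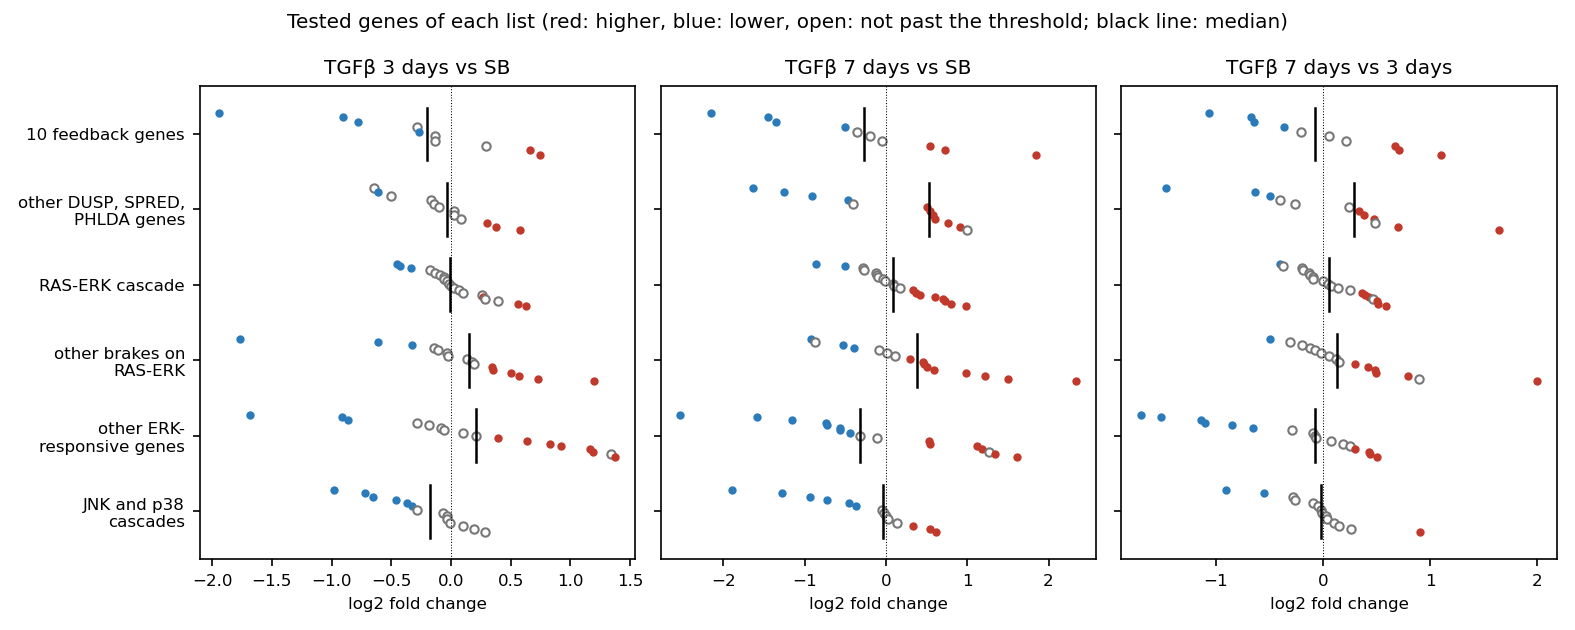
Log2 fold changes of the 10 genes and of the tested genes of each pathway list in the 3 comparisons, with called genes in red (higher) or blue (lower), open points for those not past the threshold, and a line at each median. At 7 days against SB the median was 0.53 for the other DUSP, SPRED and PHLDA genes, 0.38 for other brakes and -0.32 for other ERK-responsive genes. Every list held genes on both sides of 0 in each comparison.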

How the data were processed

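RNA was measured in 6 libraries (polyA-selected, TruSeq RNA v2, paired-end, not marking strand). Per the study's methods and processing notes, the authors aligned reads to hg19 with STAR, counted them per gene with HTSeq 0.6.1p1 and normalized them with DESeq2. The deposited values are these normalized counts, rounded to whole numbers, and are treated here as a score, since raw counts were not used here. A negative binomial test was therefore not applied. From them log2(value + 1) was tested with limma 3.58.1 in R 4.3.3 (all 6 libraries in one fit, trended empirical Bayes, genes with a mean of at least 10), with Benjamini-Hochberg adjustment over all 14395 genes and a threshold of 0.05. Log2 fold changes are on this scale and slightly understate those of low genes. Differences between groups given as n-fold or times lower are ratios of the group means of the normalized counts. The fit was tested on simulated data. Levels per kilobase used the exon union of GENCODE v44 lifted to GRCh37, and promoters came from RefSeq (GRCh38.p14). Alternatives changed the filter, pseudocount, scaling, variance trend and libraries used, and included the replicate number as a block. The 10 genes and the lists were chosen with earlier results of these data known. In each list and comparison, named genes came from the 2 strongest rises and 2 strongest falls among called genes averaging 100 or more, and for DUSP6 and SPRY4 the 3 genes most correlated with each were sought. Some results selected by these rules are not reported here. IER2, FOS and EGR1 were set beside DUSP1 after their values were seen. Same-numbered libraries of different groups did not deviate together (correlations of 0.14, -0.10 and -0.29), so the numbers were not taken as pairs.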

Additional observations from a re-analysis of the deposited data

Results flagged for a closer look

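For 7 of the 10 genes the level differed between 7 and 3 days of TGFβ in limma, beside 33.2% of all genes tested, and the duration of TGFβ and the time in culture cannot be told apart. The log2 differences were -0.64 for DUSP1, 1.1 for DUSP4, -0.67 for DUSP5, 0.71 for DUSP6, -1.06 for SPRY2, -0.36 for SPRED2 and 0.67 for PHLDA1. DUSP6 was the one of these with a return towards SB after a decrease at 3 days.

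Named genes of the pathway lists that also differed between the times were DUSP16 (0.70), SPRED3 (0.48), DUSP2 (-1.46) and DUSP14 (-0.64) of the same families, GAB1 (0.59), SOS2 (0.51) and RPS6KA1 (-0.40) of the cascade, and IL17RD (2.0) and RASAL2 (-0.50) of the other brakes. Among ERK-responsive genes these were IER2 (0.50), SH2B3 (0.44), EGR1 (-1.70) and FOSL1 (-1.51), and in the JNK and p38 cascades MAP2K6 (0.90), MAP2K3 (-0.90) and MAP3K5 (-0.55). With 2 libraries a group, no test for single outlying libraries was made.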

How the results depend on the processing

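Of 480 results of the 10 genes under alternatives, 452 kept their direction and side of the threshold, 20 lost and 8 gained the call, and 0 changed direction. The number of members called was 5 to 7 at 3 days against SB, 7 to 8 at 7 days against SB and 5 to 7 between 3 and 7 days, and 5 to 6, 7 to 8 and 5 to 7 when 1 library was left out. With the replicate number as a block it was 5, 8 and 7 (DUSP1 at 7 days against SB then passed, adjusted p = 0.0417), where samples share only a number. For 864 results of named list genes, 810 kept their call, 54 lost it and 0 changed direction.

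Counts over the pathway lists moved more. The 4 other family genes at 3 days became 2 with no filter, equal totals, no trend, the 4 libraries alone or the replicate block (2 to 4 with 1 library left out), and the 8 between the times became 4 with no filter (3 to 8). Cascade genes at 3 days went from 6 to 3 with no filter or no trend (3 to 6), and those between the times from 7 to 1 without the second 7-day library and 4 without the second 3-day library (1 to 8). Other brakes at 3 days went from 9 to 5 with no filter and 3 with no trend (5 to 9), and between the times from 7 to 4 with no trend (4 to 9). JNK and p38 genes at 3 days went from 6 to 2 with no filter or no trend (2 to 6). The cause was not tested. Counting error was at most 5.78% of the value for the 10 genes, and low list genes such as DUSP8 (4 to 21 normalized counts) are less precise.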
